A study of Homo sapiens with 14 samples.

Results

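The genes described here repair DNA breaks by homologous recombination, remove DNA crosslinks by the Fanconi anaemia pathway, or signal such damage to the cell cycle. They are 42 genes given as a list, found by symbol in the platform's table of probe sets and genes. Of these, 37 were measured, among 19775 genes in all, each by the 1-gene probe set with the highest mean over all arrays. BRCA2, RBBP8, FANCA and FANCD2 have no listed probe set and ATRIP shares its probe sets with TREX1, so these 5 were not analysed here. Expression was measured in Hep3BTAp73β cells, a line made from the hepatocellular carcinoma line Hep3B. Dox+ cells received doxycycline at 1 µg/mL for 12 h, 24 h or 48 h, and Dox− cells at the same times received none. Cells of both arms carry the Tet repressor plasmid pcDNA6/TR and the pT-REx-DEST30-TAp73β plasmid, from which doxycycline releases the expression of the transcription factor TAp73β, and both come from colonies that survived blasticidin and G418. Total RNA came from 2 cultures of each arm at both earlier times and from 3 of each at 48 h, and was hybridised to 14 arrays in all, Affymetrix U133 Plus 2.0, and the values are log2 expression after RMA. Cells without the construct given doxycycline were not analysed here, so doxycycline itself and TAp73β cannot be told apart. The sample labels give DMEM as the culture medium, whereas the methods give RPMI for Hep3B cells.

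In homologous recombination, nucleases cut back one strand at a broken DNA end, BRCA1, PALB2 and their partners prepare the exposed strand for pairing, and the missing sequence is copied from the sister chromatid. In the Fanconi pathway, FANCM and the core complex recognise a crosslink, FANCL and UBE2T attach ubiquitin to a pair of proteins that includes FANCI, and the crosslink is cut out and repaired by recombination. Both work mainly in S and G2 phase, where many of their genes are transcribed under E2F factors and related regulators.

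The windows of 250 bases before the gene start were searched for letters of elements known from cell cycle promoters, because members differed in opposite directions at 48 h. The searched letters, on both strands, were CCAAT for the NF-Y box, TTGGCGC or its variants TTCGCGC and otherwise TTCCCGC for E2F, and TTTGAA or otherwise TTCGAA for the CHR element. The sequences shown are those of BLM, EXO1 and FANCM, with the largest falls at 48 h, and of FANCE and FANCL, the only members that rose in that test. They are written 5′ to 3′ from RefSeq on GRCh38.p14, with CCAAT and E2F letters in capitals.
BLM, chr15:90717096-90717345, + strand: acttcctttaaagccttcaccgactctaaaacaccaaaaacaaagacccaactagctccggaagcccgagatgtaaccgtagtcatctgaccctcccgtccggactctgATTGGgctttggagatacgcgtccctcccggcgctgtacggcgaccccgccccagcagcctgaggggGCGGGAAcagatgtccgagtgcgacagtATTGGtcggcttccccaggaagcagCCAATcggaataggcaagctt
EXO1, chr1:241847954-241848203, + strand: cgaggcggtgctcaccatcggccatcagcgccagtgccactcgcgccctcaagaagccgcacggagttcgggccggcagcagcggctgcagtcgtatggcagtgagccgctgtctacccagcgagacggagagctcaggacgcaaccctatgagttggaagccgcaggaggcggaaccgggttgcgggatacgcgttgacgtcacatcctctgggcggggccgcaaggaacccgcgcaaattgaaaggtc
FANCM, chr14:45135680-45135929, + strand: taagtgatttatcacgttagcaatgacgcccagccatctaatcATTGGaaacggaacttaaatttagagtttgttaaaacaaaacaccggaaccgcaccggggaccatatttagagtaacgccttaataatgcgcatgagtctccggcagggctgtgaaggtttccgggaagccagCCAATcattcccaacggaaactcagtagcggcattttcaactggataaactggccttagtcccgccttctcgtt
FANCE, chr6:35452088-35452337, + strand: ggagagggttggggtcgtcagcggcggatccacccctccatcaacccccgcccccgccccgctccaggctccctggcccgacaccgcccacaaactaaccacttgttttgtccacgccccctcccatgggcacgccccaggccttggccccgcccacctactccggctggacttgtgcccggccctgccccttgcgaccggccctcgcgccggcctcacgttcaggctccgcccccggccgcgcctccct
FANCL, chr2:58241326-58241575, − strand: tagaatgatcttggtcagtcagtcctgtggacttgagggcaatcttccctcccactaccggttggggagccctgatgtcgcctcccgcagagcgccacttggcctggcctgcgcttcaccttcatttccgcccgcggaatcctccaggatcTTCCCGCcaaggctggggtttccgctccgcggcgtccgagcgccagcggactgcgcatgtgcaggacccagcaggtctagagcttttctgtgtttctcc
The BLM window holds CCAAT letters from positions -141, -46 and -21, counted back from the start, and E2F letters from position -74. FANCM has CCAAT letters from positions -207 and -74, and FANCL has E2F letters from position -99. The windows of both EXO1 starts, of which the first is shown, and those of FANCE and FANCB hold none of the searched letters. Of the 33 measured members with a window, 16 (48.5%) had CCAAT letters, compared with 37% of 27305 genes, and 10 (30.3%) had E2F letters, compared with 11.2%. The shares for CHR letters were 18.2% of members and 17.2% of genes. CCAAT letters stood in 11 of 18 members that fell at 48 h and 5 of 13 that did not pass, and E2F letters in 6 of 18 and 3 of 13. A match is a run of letters and not a bound site, and no binding was measured.

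At 48 h the repair genes were lower in Dox+ than in Dox− cells more often than higher. Of the 37 members, 21 (56.8%) passed the test as lower and 2 (5.41%) as higher, while 12.9% of all 19775 genes were called lower and 11.3% higher (limma, adjusted p under 0.05). The median log2 difference of the members was -0.23, and that of all genes was -0.02. With all 14 arrays in 1 fit, 8 of the 21 did not pass, namely RAD51C, RAD54L, RAD54B, WRN, EME1, ATR, TOPBP1 and USP1. The falls were modest in size, between 1.15-fold and 1.91-fold, and 3 genes, BLM, EXO1 and FANCM, fell by 1.5-fold or more. All Dox+ arrays lay below all Dox− arrays for 23 members and above them for 3, with 21.9% and 17.4% of all genes placed likewise. Fewer expressing cells and less RNA per cell cannot be told apart in these bulk cultures.

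At 24 h, 7 members passed as lower and FANCE as higher, with 2.81% and 3.01% of all genes called lower and higher. The 7 were EXO1, FANCM, CHEK2, RAD54B, RAD51AP1, POLQ and FANCI, and all 7 were again lower at 48 h, where they made up 33.3% of the 21. The median difference of the members at 24 h was -0.30, against 0.02 for all genes. Of the 37 differences 28 were below 0, and of all 19775 genes 9038 were. The Dox+ arrays lay wholly below the Dox− arrays for 22 members and above them for 3, as for 23.7% and 26.6% of all genes. With 2 arrays in each group the count of 7 lower was unstable: it was 2 without Dox− replicate 1, 3 without any of the other 24 h arrays, 3 after quantile normalization of the deposited values and 14 with all 14 arrays in 1 fit.

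At 12 h no member passed in either direction, with 0.0202% of all genes called lower and 0.647% higher. Unadjusted limma p-values under 0.05 were found for 2 lower and 3 higher of the 37 members. Among all 19775 genes they were found for 1286 lower and 1414 higher. Student's t-test, which the methods list among general statistics (here the methods' t-test), also called 0 members after adjustment. The median difference of the members was 0.00, against -0.04 for all genes, and 7 members lay wholly below and 7 wholly above the Dox− arrays (27.6% and 19.3% of all genes). The standard errors at this time ran from 0.14 to 0.37, with a median of 0.16, against a median of 0.07 at 48 h.

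**Figure D1:**
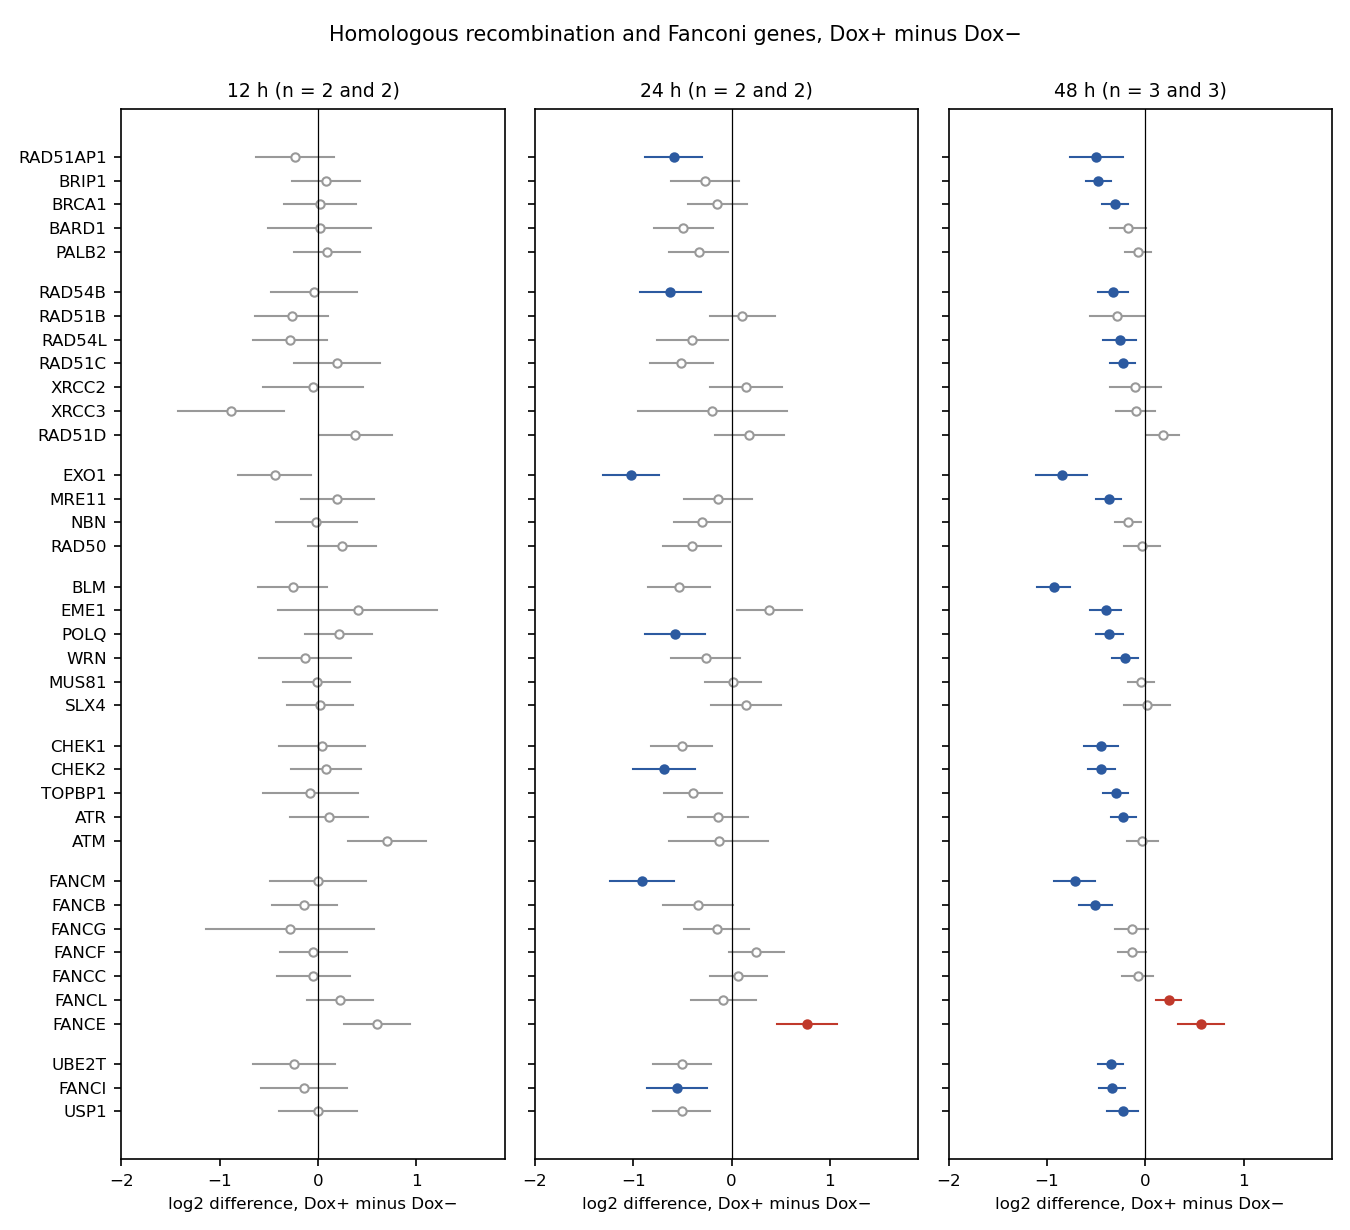
Log2 difference of the 37 measured genes, Dox+ minus Dox− (horizontal axis), at 12, 24 and 48 h, ordered by role from top to bottom. Points are limma estimates, bars their 95% confidence intervals, filled blue points genes called lower, filled red points genes called higher and open grey points genes that did not pass. The 48 h panel has 21 blue and 2 red points, the 24 h panel 7 and 1, and the 12 h panel none.

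The arrays behaved as their labels say for the induced gene. TP73 lay between 7.89 and 8.30 on the 7 Dox+ arrays and between 5.82 and 6.08 on the 7 Dox− arrays, and CDKN1A, the p21 cell cycle inhibitor and a known p73 target, was 6.82-fold higher in Dox+ cells at 48 h (adjusted p = 3.84e-08). Hepatocyte markers averaged 11.6 to 12.0 on every array. From array to array the mean of the leukocyte list ran from 6.86 to 7.13, that of the endothelial list from 4.61 to 5.00 and that of the fibroblast or stellate list from 5.66 to 6.16, and probe sets of different lists were not compared in level. At 48 h, 4 of 7 hepatocyte markers passed as lower and 1 as higher, and 1 of 4 leukocyte markers, LYZ, passed as lower. Of 5 fibroblast or stellate markers 2 passed as higher, and none of 4 endothelial markers passed in either direction. For comparison, 12.9% of all genes were called lower and 11.3% higher at 48 h. What part the marker differences have in the repair gene differences was not tested.

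Among the checkpoint genes, which carry the damage signal from DNA to the cell cycle, 4 of 5 were lower in Dox+ cells at 48 h. None was higher, and of all genes 12.9% were called lower and 11.3% higher at that time. CHEK2, an effector kinase activated by ATM after double-strand breaks, measured 9.17, 9.17 and 9.05 (log2) on the Dox+ arrays, against 9.54, 9.57 and 9.61 on the Dox− arrays. The groups were 0.38 apart, more than the range within either group (log2 difference -0.45 ± 0.06 (SE), adjusted p = 0.000715, 1.36-fold lower). Already at 24 h CHEK2 was lower, at 8.78 and 8.95 on the Dox+ arrays, against 9.65 and 9.46 on the Dox− arrays (log2 difference -0.69, adjusted p = 0.024), a call that was lost without Dox− replicate 1 (adjusted p = 0.0971) and without Dox+ replicate 1 (adjusted p = 0.11). CHEK1, the effector kinase of ATR at stalled replication forks, had 8.98, 9.02 and 8.78 (log2) on the Dox+ arrays, against 9.39, 9.43 and 9.31 on the Dox− arrays at 48 h. Every Dox+ value lay below every Dox− value (log2 difference -0.45 ± 0.08 (SE), adjusted p = 0.0024). CHEK1 has 3 further probe sets, 1 of which also passed as lower and 1 of which, a dim one, had a difference of 0.20 that did not pass.

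TOPBP1, the scaffold that activates ATR, read 10.48, 10.49 and 10.49 (log2) on the Dox+ arrays, against 10.78, 10.82 and 10.76 on the Dox− arrays. The treated arrays differed by 0.01 among themselves and lay 0.27 or more below the untreated ones (log2 difference -0.30 ± 0.06 (SE), adjusted p = 0.00339), although the call was lost with all 14 arrays in 1 fit (adjusted p = 0.114). ATR itself, the kinase that responds to single-stranded DNA, fell by less, with a log2 difference of -0.22 (adjusted p = 0.0195). Its call was lost without Dox− replicate 1 or 3 or Dox+ replicate 1 (adjusted p = 0.0501, 0.0697 and 0.0654). ATM, the kinase that responds to double-strand breaks, had overlapping groups at 48 h and a difference of -0.03, with a 95% interval of -0.19 to 0.13. At 12 h ATM measured 7.63 and 8.0 on the Dox+ arrays, against 7.12 and 7.10 on the Dox− arrays, a difference of 0.71 that did not pass (adjusted p = 0.156), although it passed with all 14 arrays in 1 fit (adjusted p = 0.0313).

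Of the genes that trim broken ends, EXO1 and MRE11 were lower at 48 h and NBN and RAD50 did not pass. EXO1, the exonuclease of long-range resection, had 8.01 and 7.95 (log2) on the Dox+ arrays, against 8.97 and 9.03 on the Dox− arrays at 24 h. This was the largest difference of any member at that time, 2.03-fold (log2 difference -1.02 ± 0.13 (SE), adjusted p = 0.00262). At 48 h it had 7.88, 8.09 and 7.61 on the Dox+ arrays, against 8.61, 8.81 and 8.71 on the Dox− arrays (log2 difference -0.85, adjusted p = 0.000652). Also at 12 h both Dox+ values, 8.24 and 8.16, were below both Dox− values, 8.78 and 8.50, but the difference of -0.44 did not pass (adjusted p = 0.317). The Dox+ and Dox− arrays of EXO1 therefore did not overlap at any of the 3 times, and its 24 h call was lost only with the methods' t-test (adjusted p = 0.259).

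MRE11, the nuclease that begins resection, read 7.96, 7.90 and 7.98 (log2) on the Dox+ arrays, against 8.31, 8.31 and 8.33 on the Dox− arrays. The Dox− values spanned 0.02 and the highest Dox+ value lay 0.33 under them (log2 difference -0.37 ± 0.06 (SE), adjusted p = 0.00122). NBN and RAD50 are its partners in the MRN complex. NBN had 10.56, 10.55 and 10.47 on the Dox+ arrays, against 10.73, 10.71 and 10.68 on the Dox− arrays, and although these do not overlap the difference of -0.18 just missed the threshold (adjusted p = 0.0523). All 5 NBN probe sets were below 0 at 48 h, and 2 of them passed as lower when each was tested on its own. RAD50 differed by -0.03 with an interval of -0.22 to 0.15.

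BRCA1 and the genes that work with it in strand pairing had 3 of 5 members lower at 48 h, namely RAD51AP1, BRIP1 and BRCA1. The share of all genes called lower at that time was 12.9%. BRIP1, a helicase that binds BRCA1 and is also the Fanconi gene FANCJ, measured 8.60, 8.60 and 8.54 (log2) on the Dox+ arrays, against 9.09, 9.06 and 9.02 on the Dox− arrays. Replicates spanned 0.06 in Dox+ cells and 0.07 in Dox− cells, and the groups did not overlap (log2 difference -0.48 ± 0.06 (SE), adjusted p = 0.000321, 1.39-fold lower). BRCA1, the ubiquitin ligase that directs breaks to recombination, had 9.00, 9.01 and 8.89 (log2) on the Dox+ arrays, against 9.27, 9.29 and 9.25 on the Dox− arrays, again without overlap (log2 difference -0.31 ± 0.06 (SE), adjusted p = 0.00497). Its second probe set had a difference of -0.25 that did not pass (adjusted p = 0.0576).

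RAD51AP1, which stimulates strand pairing, was lower at both later times. Its 24 h values were 10.78 and 10.80 on the Dox+ arrays, against 11.45 and 11.31 on the Dox− arrays (log2 difference -0.59, adjusted p = 0.0333), a call that was lost without any 1 of the 4 arrays (adjusted p = 0.0563 to 0.133). At 48 h they were 10.82, 10.81 and 10.42 on the Dox+ arrays, against 11.08, 11.37 and 11.09 on the Dox− arrays (log2 difference -0.50, adjusted p = 0.0155). Here Dox+ replicate 3 was the lowest and Dox− replicate 2 the highest, and without that Dox− array the adjusted p was 0.0569. BARD1, the partner of BRCA1 in its ligase, did not pass by the probe set used (difference -0.18, adjusted p = 0.153), whereas its other 2 probe sets gave -0.22 and -0.36 and passed when tested on their own (adjusted p = 0.0383 and 0.0191). PALB2, a bridging partner of BRCA1, had a difference of -0.07 with an interval of -0.20 to 0.06.

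Of the recombination paralogs and the RAD54 motor proteins, RAD54B, RAD54L and RAD51C passed as lower at 48 h, and RAD51B, RAD51D, XRCC2 and XRCC3 did not pass. RAD54B, a motor protein that moves along DNA during recombination, had 7.85, 7.96 and 7.88 (log2) on the Dox+ arrays, against 8.22, 8.32 and 8.14 on the Dox− arrays (log2 difference -0.33 ± 0.07 (SE), adjusted p = 0.00653), a call lost with all 14 arrays in 1 fit (adjusted p = 0.0674). Its 3 treated arrays were all below its 3 untreated ones, as were both at 24 h, where the difference was -0.62 (adjusted p = 0.0346). That 24 h call was lost without Dox− replicate 1, Dox− replicate 2 or Dox+ replicate 2 (adjusted p = 0.123, 0.0601 and 0.158). RAD54L, the closest relative of yeast Rad54, and RAD51C, a paralog found in both paralog complexes, differed by -0.26 and -0.23 (adjusted p = 0.03 and 0.0174). Both calls were lost without Dox− replicate 2, Dox− replicate 3 or Dox+ replicate 1, with adjusted p of 0.0755 to 0.103 for RAD54L and 0.05 to 0.0556 for RAD51C, and RAD54L was also lost without Dox+ replicate 3 (adjusted p = 0.0731).

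XRCC3, the partner of RAD51C, had widely spread replicates. At 12 h it had 6.16 and 5.70 (log2) on the Dox+ arrays, against 7.09 and 6.54 on the Dox− arrays, with no overlap and a difference of -0.89 that did not pass (adjusted p = 0.192). The Dox− values at 24 h were 5.48 and 6.74, so the untreated replicates themselves differed by 1.26. RAD51D, another paralog, was the only one above 0 at 48 h (0.18, adjusted p = 0.113). RAD51B and XRCC2 differed by -0.28 and -0.10 and did not pass (adjusted p = 0.138 and 0.602).

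The enzymes that dissolve, cut or bypass recombination intermediates held the largest 48 h fall of all members. BLM, the RecQ helicase that dissolves double Holliday junctions, measured 7.48, 7.39 and 7.26 (log2) on the Dox+ arrays, against 8.32, 8.23 and 8.36 on the Dox− arrays. The highest treated value lay 0.75 below the lowest untreated one, against ranges of 0.23 in Dox+ cells and 0.13 in Dox− cells (log2 difference -0.93 ± 0.07 (SE), adjusted p = 2.69e-05, 1.91-fold lower). At 24 h BLM read 7.97 and 7.71 on the Dox+ arrays, against 8.36 and 8.38 on the Dox− arrays, where the difference of -0.53 did not pass (adjusted p = 0.061).

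POLQ, the polymerase of the alternative end joining route, read 8.58, 8.66 and 8.55 (log2) on the Dox+ arrays, against 8.99, 8.99 and 8.92 on the Dox− arrays (log2 difference -0.37 ± 0.06 (SE), adjusted p = 0.00207). Its second, dimmer probe set had a difference of -0.51 that did not pass (adjusted p = 0.236). POLQ was lower at 24 h as well, with 8.48 and 8.49 on the Dox+ arrays, against 9.18 and 8.94 on the Dox− arrays (log2 difference -0.58, adjusted p = 0.0445). The groups did not overlap at either time, but the 24 h call was lost without any 1 of the 4 arrays (adjusted p = 0.05 to 0.154). EME1, the partner of the MUS81 nuclease, had a difference of 0.39 at 24 h, which did not pass (adjusted p = 0.175), and -0.40 at 48 h, which did (adjusted p = 0.00242). At 48 h EME1 had 7.95, 7.99 and 7.81 on the Dox+ arrays, against 8.31, 8.39 and 8.27 on the Dox− arrays, and at 12 h the Dox+ replicates stood at 9.71 and 8.61, the Dox− replicates at 8.47 and 9.04. The EME1 call at 48 h was lost when all 14 arrays were fitted together (adjusted p = 0.271), and the differences at 48 h and 24 h were not shown to differ (adjusted p = 0.346). Its second probe set had differences of -0.27 at 24 h, which did not pass, and -0.33 at 48 h, which passed on its own (adjusted p = 0.0382).

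WRN, the RecQ helicase lost in Werner syndrome, had a difference of -0.21 at 48 h (adjusted p = 0.0298) that was lost without any 1 of the 6 arrays (adjusted p = 0.0556 to 0.107). MUS81, the catalytic nuclease, and SLX4, the scaffold on which nucleases gather, differed by -0.05 and 0.02, with intervals of -0.18 to 0.09 and -0.22 to 0.25. EME1 was thus lower at 48 h while its partner MUS81 was not called, and the difference between the pair was not tested.

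**Figure D2:**
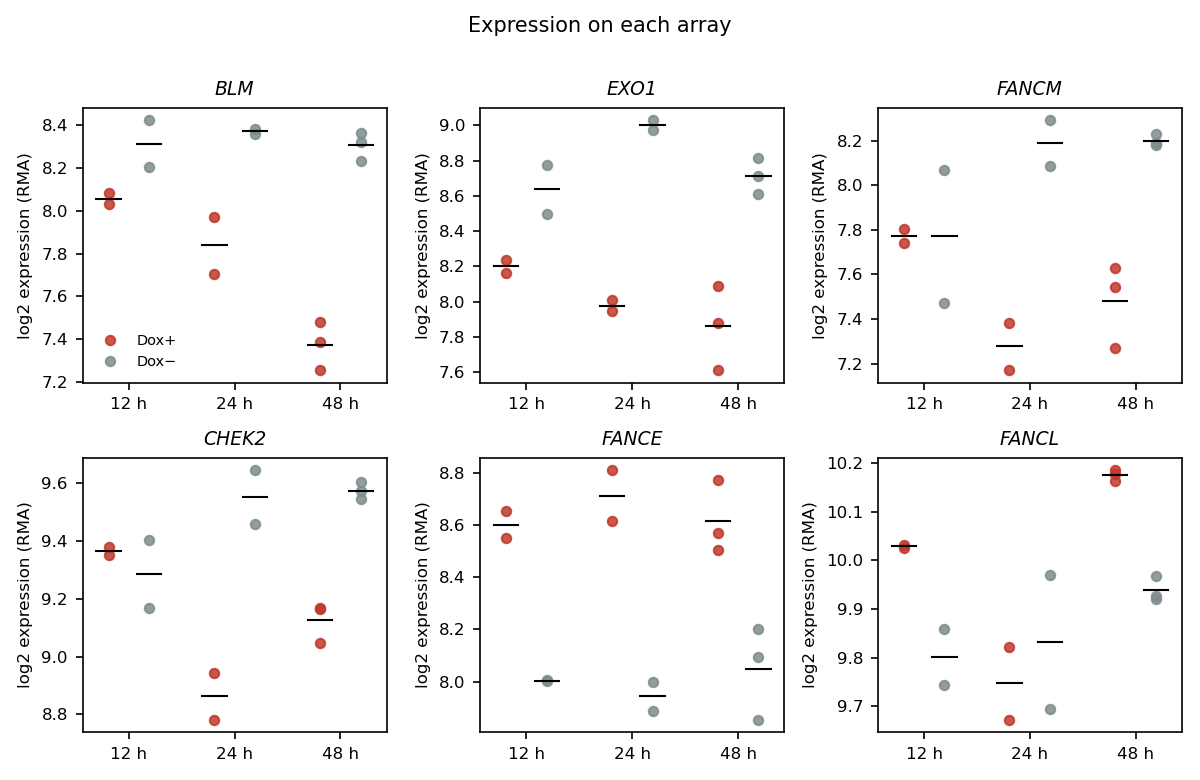
Log2 expression after RMA (vertical axes, which differ in range) of 6 genes on each of the 14 arrays at 12, 24 and 48 h, with Dox+ in red left of Dox− in grey and black lines at group means. At 48 h the Dox+ points of BLM, EXO1, FANCM and CHEK2 lie below all Dox− points, and those of FANCE and FANCL lie above them.

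The Fanconi core complex was the only role group with members called in both directions, 2 lower and 2 higher of 7 at 48 h. The shares of all genes called lower and higher at that time were 12.9% and 11.3%. FANCM, the translocase that anchors the core complex to crosslinked DNA, had 7.38 and 7.17 (log2) on the Dox+ arrays, against 8.29 and 8.09 on the Dox− arrays at 24 h and 7.55, 7.63 and 7.27 on the Dox+ arrays, against 8.18, 8.19 and 8.23 on the Dox− arrays at 48 h. The groups were apart at both times, with log2 differences of -0.91 ± 0.14 and -0.72 ± 0.09 (SE), and adjusted p of 0.00853 and 0.000464. At 12 h its group means were equal to 2 decimals. All 4 FANCM probe sets were below 0 at 48 h and 3 of them passed on their own. FANCB, an X-linked subunit of the catalytic module with FANCL, measured 5.47, 5.51 and 5.32 (log2) on the Dox+ arrays, against 6.04, 5.91 and 5.87 on the Dox− arrays (log2 difference -0.51 ± 0.07 (SE), adjusted p = 0.00107). The FANCB probe set used is dim, with a mean of 5.65 over all arrays, under the median gene mean of 6.49. All 4 FANCB probe sets were below 0, though only the one used passed on its own. The FANCB call was lost with the probe set of largest interquartile range (adjusted p = 0.0507).

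FANCE, the subunit that binds the ubiquitination substrate, was higher at both later times. It measured 8.65 and 8.55 on the Dox+ arrays, against 8.0 and 8.01 on the Dox− arrays at 12 h, a difference of 0.60 that did not pass (adjusted p = 0.155) but did so with all 14 arrays in 1 fit (adjusted p = 0.012). At 24 h it had 8.81 and 8.62 on the Dox+ arrays, against 8.0 and 7.89 on the Dox− arrays (log2 difference 0.77 ± 0.14 (SE), adjusted p = 0.014, 1.71-fold higher), and at 48 h 8.50, 8.57 and 8.77 on the Dox+ arrays, against 7.85, 8.10 and 8.20 on the Dox− arrays (log2 difference 0.57 ± 0.10 (SE), adjusted p = 0.00337, 1.48-fold higher). The lowest of the 7 Dox+ values, 8.50, was above the highest of the 7 Dox− values, 8.20. The 24 h call was lost without Dox− replicate 2 (adjusted p = 0.0573) or Dox+ replicate 1 (adjusted p = 0.0642), and the 48 h call with the methods' t-test (adjusted p = 0.0626).

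FANCL, the ubiquitin ligase subunit, passed as higher at 48 h, with 10.18, 10.19 and 10.16 (log2) on the Dox+ arrays, against 9.92, 9.93 and 9.97 on the Dox− arrays. Its replicates spanned 0.02 in Dox+ cells and 0.05 in Dox− cells, so a difference of 1.18-fold stood clear of the spread (log2 difference 0.24 ± 0.05 (SE), adjusted p = 0.0117), though the call was lost with all 14 arrays in 1 fit (adjusted p = 0.0928). At 12 h FANCL read 10.03 and 10.03 on the Dox+ arrays, against 9.86 and 9.74 on the Dox− arrays, and the difference of 0.23 did not pass (adjusted p = 0.515). At 24 h the Dox+ and Dox− arrays of FANCL overlapped, and the difference was -0.085, which did not pass (adjusted p = 0.796). FANCC, FANCF and FANCG, the remaining measured core subunits, differed by -0.08, -0.13 and -0.14 at 48 h and did not pass. The second FANCF probe set differed by -0.24 and passed as lower when tested on its own (adjusted p = 0.0298). FANCE and FANCL have 1 listed probe set each, so no second probe set bears on their rises.

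UBE2T, FANCI and USP1, the measured genes of the ubiquitination step and its reversal apart from FANCL, passed as lower at 48 h. UBE2T, the ubiquitin-conjugating enzyme that works with FANCL, read 10.48, 10.42 and 10.46 (log2) on the Dox+ arrays, against 10.78, 10.77 and 10.86 on the Dox− arrays. The lowest untreated value was 0.30 above the highest treated value (log2 difference -0.35 ± 0.06 (SE), adjusted p = 0.002). FANCI, one of the ubiquitinated pair, had 9.65, 9.65 and 9.57 (log2) on the Dox+ arrays, against 9.96, 10.00 and 9.93 on the Dox− arrays (log2 difference -0.34 ± 0.06 (SE), adjusted p = 0.00242). At 24 h FANCI was also lower (log2 difference -0.56, adjusted p = 0.0474), a call that was lost without any 1 of the 4 arrays (adjusted p = 0.0569 to 0.163), and its 3 probe sets were below 0 at 48 h. USP1, the enzyme that takes the ubiquitin off again, differed by -0.23 (adjusted p = 0.0414), which was lost without any 1 of the 6 arrays except Dox+ replicate 2 (adjusted p = 0.0752 to 0.107). With every probe set tested on its own, the USP1 probe set used did not pass (adjusted p = 0.0635). The second USP1 probe set, with a difference of -0.12, did not pass either (adjusted p = 0.666). UBE2T and FANCL, which act together, were thus called in opposite directions at 48 h.

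Genes of dividing cells were lower on the same arrays. Of 15 proliferation markers, none of them a member, 0 passed at 12 h, 7 were lower at 24 h and 9 at 48 h. At no time was a marker called higher. Of all genes, 0.0202%, 2.81% and 12.9% were called lower at 12, 24 and 48 h, and 0.647%, 3.01% and 11.3% higher. CCNA2, the cyclin of S and G2 phase, and CCNB1, the mitotic cyclin, fell by 0.69 and 0.61 at 48 h on the log2 scale (adjusted p = 0.00114 and 0.00117), and RRM2, which supplies deoxynucleotides, fell by 0.47 (adjusted p = 0.0119). The median level of the 15 on an array at 48 h ran from 10.88 to 11.15 for Dox+ and from 11.33 to 11.46 for Dox−. At 24 h it ran from 10.91 to 10.94 for Dox+ and from 11.51 to 11.55 for Dox−. At 12 h the ranges overlapped, 11.10 to 11.28 in Dox+ cells and 11.11 to 11.39 in Dox− cells. The median differences of the markers were -0.13, -0.48 and -0.30 at 12, 24 and 48 h, against -0.04, 0.02 and -0.02 for all genes. From these arrays the paper reports repression of gene sets for E2F targets, the G2/M checkpoint and the mitotic spindle. The share of cells in S and G2 phase was not measured on these cultures. After a longer doxycycline treatment of the same cell line, the paper reports a smaller share of cells in S and G2/M phase. What part this share has in the repair gene differences was not tested.

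**Figure D3:**
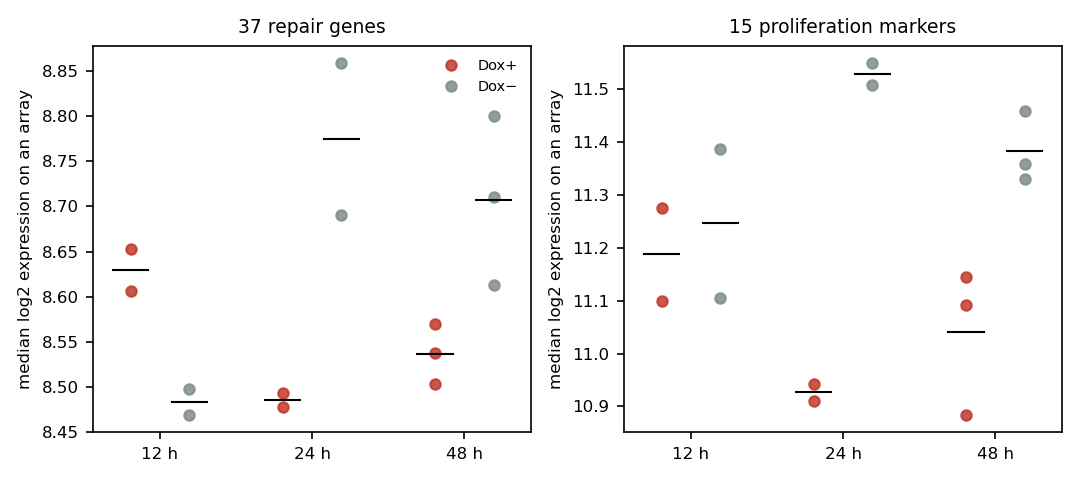
Median log2 expression on each array (vertical axes) of the 37 measured repair genes (left) and of 15 proliferation markers (right) at 12, 24 and 48 h, with Dox+ in red left of Dox− in grey and black lines at group means. The Dox+ points of both panels lie below the Dox− points at 24 h and 48 h. At 12 h the repair gene medians are 8.61 and 8.65 in Dox+ cells, above 8.47 and 8.50 in Dox− cells. The median of the 37 differences gene by gene at 12 h was 0.00, with 18 of them below 0.

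Over time, levels moved in both arms. In Dox+ cells 6 members were lower at 48 h than at 12 h and 0 were higher, with 3.42% of all genes called lower and 5.8% higher. They were EME1 (-1.24, or -0.69 without Dox+ replicate 1 of 12 h), BLM (-0.68), POLQ (-0.45), RAD51C (-0.44), BRIP1 (-0.43) and BRCA1 (-0.36), as log2 differences with adjusted p of 9.82e-04 to 0.037. In Dox− cells 10 members were higher at 48 h than at 12 h and XRCC3 was lower (-1.20), with 12.3% of all genes called higher and 14.2% lower. The 10 were ATM (0.85), RAD50 (0.53), CHEK1 (0.44), FANCM (0.43), PALB2 (0.43), MRE11 (0.41), WRN (0.40), RAD51D (0.36), CHEK2 (0.29) and FANCF (0.27). Time and the harvest of the cultures cannot be told apart. The count of 6 was 3 without any 1 of the 48 h Dox+ arrays, and BRCA1 was at -0.23 and not called without Dox+ replicate 2 of 12 h. The count of 10 was 4 to 6 without Dox− replicate 2 of 12 h, without any 1 of the 48 h Dox− arrays and without Dox+ replicate 1 or 2 of 48 h, and XRCC3 was not called without Dox− replicate 1 of 12 h. Without Dox− replicate 2 of 12 h the differences of CHEK1, CHEK2 and FANCM were 0.20, 0.17 and 0.13 and were not called.

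Of the 37 members, 26 (70.3%) had a Dox+ mean that was lower at 48 h than at 12 h, compared with 58.5% of all genes, and 24 (64.9%) had a Dox− mean that was higher, compared with 42.4%. For FANCM the Dox+ means were 7.77, 7.28 and 7.48 at 12, 24 and 48 h, and its Dox− means were 7.77, 8.19 and 8.20. For BLM the Dox− means were nearly level over time (8.31, 8.37 and 8.31), and it was the Dox+ means that moved. The mean of WRN was higher at 48 h than at 12 h in both arms.

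The differences between Dox+ and Dox− cells were compared between times in a test of the change in the difference. Between 48 h and 12 h, BLM (-0.67, adjusted p = 0.0273) and POLQ (-0.58, adjusted p = 0.0331) had more negative differences at 48 h, where 1.64% of all genes were called lower and 1.56% higher. Neither passed when the arrays were weighted by time point (adjusted p = 0.0971 and 0.102), and leaving out single arrays gave 0 to 7 members. Between 48 h and 24 h no member passed by limma, with 0.167% of all genes called lower and 0.511% higher. Unadjusted limma p-values under 0.05 were found for 3 lower and 2 higher of the 37 members. Among all 19775 genes they were found for 1218 lower and 1196 higher.

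**Figure D4:**
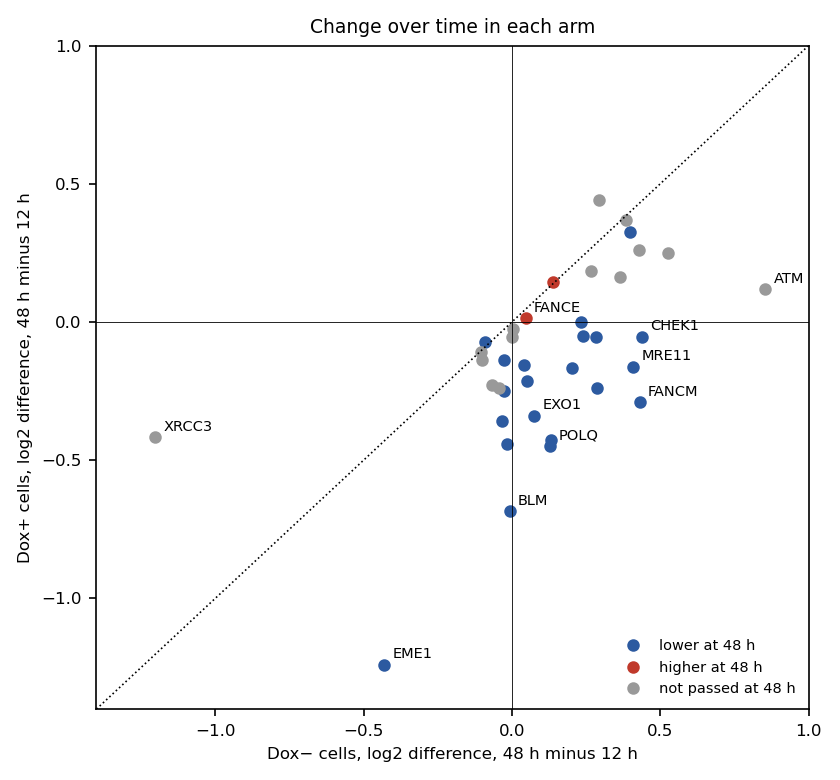
Log2 difference between 48 h and 12 h in Dox− cells (horizontal axis) and in Dox+ cells (vertical axis) for the 37 measured genes, coloured by their call at 48 h, with a dotted line where both changes are equal. Of the 37 points, 26 lie below 0 on the Dox+ axis and 24 above 0 on the Dox− axis. EME1 (-1.24 in Dox+ cells, or -0.69 without 1 of its 12 h Dox+ arrays) and XRCC3 (-1.20 in Dox− cells) lie farthest out.

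Other genes of these pathways were called in both directions. Among 36 further recombination genes, 8 were lower and 3 higher at 48 h, with a median difference of -0.03. For comparison, 12.9% of all genes were called lower and 11.3% higher at 48 h, with a median of -0.02. SHLD2, a shieldin subunit that limits resection, DNA2, a resection nuclease, and MCM8, a helicase of recombination, fell by 0.57, 0.48 and 0.46 (adjusted p = 1.49e-04, 0.00214 and 0.00232). ERCC4 and ERCC1, which together form a structure-specific nuclease, and ZSWIM7, a factor of recombination, were higher by 0.28, 0.25 and 0.26 (adjusted p = 0.00841, 0.0111 and 0.0466). Of 11 further Fanconi genes, 3 were lower and 2 higher, with a median of -0.14. RAD18, the ligase that ubiquitinates PCNA, had 7.16, 7.27 and 7.10 on the 48 h Dox+ arrays, against 7.78, 7.93 and 7.83 on the Dox− arrays (log2 difference -0.67, adjusted p = 1.50e-04). REV1, a translesion polymerase, was higher by 0.34 (adjusted p = 0.00638).

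The checkpoint clamp and its mediators had 7 lower and 1 higher of 12 members, with a median of -0.27. MDC1, an adaptor on marked chromatin that is also among the further recombination genes, CDC25A, a phosphatase that drives cell cycle kinases, and WEE1, a kinase that restrains them, fell by 0.44, 0.43 and 0.39 (adjusted p = 5.12e-04, 6.32e-04 and 0.00126), and ETAA1, an activator of ATR, was higher by 0.33 (adjusted p = 0.0295). Non-homologous end joining had 2 lower and 1 higher of 10 genes, where XRCC4 (-0.45, adjusted p = 0.00254) and its ligase partner LIG4 (0.42, adjusted p = 0.0122) were called in opposite directions. Base excision repair had 7 lower and 0 higher of 17, led by NEIL3 (-0.63, adjusted p = 0.0129), a glycosylase that also opens crosslinks, and NTHL1 (-0.52, adjusted p = 4.26e-04). Nucleotide excision repair had 3 lower and 3 higher of 15, with DDB2, a damage sensor, higher by 0.36 (adjusted p = 0.00731). Mismatch repair had 1 lower, PMS1 (-0.32, adjusted p = 0.00418), and 0 higher of 4 measured. Beside these counts stand the 12.9% of all genes called lower and 11.3% called higher at 48 h. No test was made between lists.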

How the data were processed

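RNA of Hep3BTAp73β cells with and without doxycycline was measured on 14 arrays in 6 groups, which the labels call biological replicates. The authors deposited log2 expression values made by RMA, and the submitters' processing notes give R 3.5.1. The methods name BRB-ArrayTools and state that outlier arrays were excluded. No background, filter or further normalization was added. Of 54675 probe sets, 62 controls were left out, and 41091 named 1 gene in the platform annotation (41037 matched by Entrez identifier), 1801 several and 11721 were not listed. The probe set with the highest mean stood for each of 19775 genes. At every time point limma 3.58.1 in R 4.3.3 set Dox+ against Dox− (lmFit, eBayes, two-sided, Benjamini-Hochberg over all genes, threshold 0.05), and changes over time and between effects were tested in 1 fit of all arrays. The fits were checked on simulated data. The number of arrays limits the precision. Coordinates are used for RefSeq promoters alone, and 1 further motif is not reported here.

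The members, roles, pathway and marker lists were chosen with earlier results of these data known. Every measured member is named, with TP73, CDKN1A (chosen after its values were seen) and, from each further list, up to 3 genes that rose and 3 that fell most at 48 h past the test. The alternatives comprised a joint fit of all arrays, a filter on dim genes, other probe sets, quantile normalization, trend and robust options, the methods' t-test, array weights, a replicate block and each array left out. Tables and figures were made with data.table (version 1.17.8), pandas 2.3.3, numpy 2.4.6 and matplotlib 3.10.9 in Python 3.11.15.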

Additional observations from a re-analysis of the deposited data

Results flagged for a closer look

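The difference between Dox+ and Dox− cells itself differed between times for BLM and POLQ in a limma test of that change over all genes. For BLM the effect at 48 h minus that at 12 h was -0.674 on the log2 scale (adjusted p = 0.0273), with effects of -0.93 at 48 h and -0.26 at 12 h. For POLQ the same difference was -0.577 (adjusted p = 0.0331), with effects of -0.37 at 48 h and 0.21 at 12 h, of which the 12 h effect did not pass by itself. Both differences missed the threshold when arrays were weighted by time point (adjusted p = 0.0971 for BLM and 0.102 for POLQ), and BLM was also lost without any 1 of 7 arrays (adjusted p = 0.0543 to 0.0779) and POLQ without any 1 of 8 (adjusted p = 0.0553 to 0.0868). Their cause was not tested.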

How the results depend on the processing

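No member changed direction between a call and any alternative. Of the 21 genes lower at 48 h, 9 passed in every alternative and 15 without any 1 array, and the count left after leaving out 1 array was 16 to 20, with 2 to 3 higher. With all 14 arrays in 1 fit it was 13, with 1 higher, and the methods' t-test left 1 higher. WRN and USP1 were each lost in 9 of 15 alternatives. The 7 lower at 24 h became 14 with all arrays in 1 fit, 13 without dim genes (under the median gene), 12 with the probe set of largest interquartile range, 3 after quantile normalization, 14 with trend and robust options, 0 with the methods' t-test and 2 to 3 without 1 array. FANCE, the 1 higher, was not called by that t-test, and 0 to 1 were called without 1 array. The 24 h median was -0.43 to -0.20 without 1 array. At 12 h, 2 were higher (ATM and FANCE) with all arrays in 1 fit, and the median was -0.039 by interquartile range, -0.052 after quantile normalization and -0.038 to 0.114 without 1 array. The difference of effects between 48 h and 12 h was lower for 0 members with array weights, 1 after quantile normalization, 5 without dim genes and 0 to 7 without 1 array. From 12 h to 48 h, Dox− cells had 2 lower after quantile normalization, 0 without dim genes and 0 to 2 without 1 array, and 4 higher with array weights, 4 after quantile normalization and 4 to 10 without 1 array. Dox+ cells had 1 higher without dim genes and 0 to 2 without 1 array, and 3 to 6 lower without 1 array. Same-numbered replicates deviated together weakly (correlations of 0.255 at 12 h, -0.11 at 24 h and 0.089 to 0.109 at 48 h), so the numbers were not taken as pairs. With the replicate number as a block, 1 member (XRCC3, adjusted p = 0.0165) was lower at 12 h, 7 at 24 h and 22 at 48 h, 1 had a lower effect at 48 h than 12 h, and 3 were lower at 48 h than 12 h in Dox+ cells. Crossing the numbers at 24 h, an alternative chosen after the correlation was seen, gave 12 lower and 1 higher. Causes of these shifts were not tested, and 4 dim members (RAD51B, XRCC2, XRCC3 and FANCB) were not tested in the dim gene setting.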
